A study of Mus musculus with 8 samples.

Results

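The genes described here are 5 chemokines that interferon-γ (IFN-γ) is known to induce: Cxcl9, Cxcl10, Cxcl11, Cxcl16 and Ccl5. They were chosen by name, and 4 of the 5 were listed in all 8 libraries, among 30406 genes shared by the libraries. Cxcl11 is not analysed here. Their RNA was followed in β-, α- and δ-cells, macrophages, endothelial cells and mesenchymal cells of mouse islets, the endocrine micro-organs of the pancreas. Islets of male C57BL/6J mice, 12 to 16 weeks old, were left untreated or were exposed for 18 h to 10 U/mL human recombinant IL-1β with 150 U/mL mouse IFN-γ ("cytokines"), to the cytokines with 2 mM NMMA, an inhibitor of nitric oxide synthase, or to 2 mM NMMA alone. All 4 conditions shared the medium, CMRL with 5.5 mM glucose, and no condition held a single cytokine. Each of the 2 replicates was a pool of islets of 10 mice that was divided over the 4 conditions, so a replicate is a pool and not a mouse. The islets were treated whole and dissociated afterwards, so every cell type was exposed beside all the others.

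Chemokines are small secreted proteins that steer the migration of leukocytes. CXCL9, CXCL10 and CXCL11 bind the receptor CXCR3, which activated T cells and natural killer cells carry, and their genes lie side by side. CXCL16 is made as a transmembrane protein, binds CXCR6 and can be shed from the cell surface, while CCL5 binds CCR1 among other receptors and is made by T cells and macrophages among others. IFN-γ acts through JAK kinases, IL-1β acts through NF-κB, and both pathways are known to act at the Cxcl9 and Cxcl10 promoters.

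In the GENCODE M21 annotation of the GRCm38 build, Cxcl9 (ENSMUSG00000029417) lies at chr5:92321347-92328079, Cxcl10 (ENSMUSG00000034855) at chr5:92346638-92348889 and Cxcl11 (ENSMUSG00000060183, annotated as a polymorphic pseudogene) at chr5:92359544-92365485, all on the minus strand within 44139 bases. Cxcl16 (ENSMUSG00000018920) and Ccl5 (ENSMUSG00000035042) lie on the minus strand of chromosome 11, at chr11:70453983-70459984 and chr11:83525778-83530518. Only the promoters of Cxcl9 and Cxcl10 are shown, because the promoter set used held no entry for Cxcl11, Cxcl16 or Ccl5. These 2 genes also had the most similar pattern of the 4 over classes and conditions. The 250 bases before each start, from RefSeq on GRCm38.p6, are at chr5:92328080-92328329 for Cxcl9 and chr5:92348890-92349139 for Cxcl10, both minus strand and written 5′ to 3′ along the gene. Capitals mark an interferon-stimulated response element (GAAA and GAAA with 2 bases between), NF-κB decamers (GGG, a purine, any 2 bases, 2 pyrimidines and CC) and the CCAAT box.
Cxcl9: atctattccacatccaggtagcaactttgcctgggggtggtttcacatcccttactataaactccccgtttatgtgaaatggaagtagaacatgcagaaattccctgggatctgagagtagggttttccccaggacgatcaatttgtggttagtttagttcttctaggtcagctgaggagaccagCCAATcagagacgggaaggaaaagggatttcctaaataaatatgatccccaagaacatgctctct
Cxcl10: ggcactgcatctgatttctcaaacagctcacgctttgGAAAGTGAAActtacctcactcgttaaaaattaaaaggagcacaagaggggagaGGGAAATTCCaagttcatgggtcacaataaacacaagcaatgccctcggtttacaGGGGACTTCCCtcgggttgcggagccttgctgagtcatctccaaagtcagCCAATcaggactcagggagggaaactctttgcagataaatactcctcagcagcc
Both strands were searched. Cxcl10 held the interferon-type motif GAAAGTGAAA at 213 to 204 bases before the start. Its NF-κB decamers lay at 159 to 150, 104 to 95 and 103 to 94 bases before the start, and the last pair overlap by all but 1 base at each end. Its CCAAT box lay at 54 to 50. In Cxcl9 the only match was a CCAAT box at 65 to 61 bases before the start. The GAS motif (TTC and GAA with 3 bases between) matched neither window. Of 32851 promoters of the same table, 2.98% held the interferon-type motif, 7.25% an NF-κB decamer, 7.02% a GAS motif and 33.8% CCAAT. The longest run of bases common to both promoters, CAGCCAATCAG, spans the CCAAT box and is in 0.755% of all promoters. A match describes the letters only, and none of these motifs was tested for activity.

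The 8 libraries held between 26549922 and 50731370 UMIs, and 10876 of 17426 barcodes passed the filters. Of these, 8129 cells fell in the 6 classes: 6352 β-cells, 662 α-cells, 293 δ-cells, 324 macrophages, 283 endothelial cells and 215 mesenchymal cells. A library held 448 to 1662 β-cells, 48 to 107 α-cells, 28 to 72 macrophages, 14 to 52 endothelial cells and 12 to 50 mesenchymal cells. The δ-cells numbered 8 to 83, and since a library with fewer than 10 cells of a class was left out of the tests, every δ-cell comparison with cytokines rests on 1 library of 11 cells. Any pair of libraries shared 0 to 2 barcodes. Nos2, the inducible nitric oxide synthase, had no more than 0.0504 UMIs per 1000000 UMIs of the class (CPM) in β-cells without cytokines and 145 to 491 CPM with them. No library thus went against its label for cytokines, while untreated and NMMA alone cannot be told apart by this gene.

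The class names were set against marker genes. The δ-cell class also held the hormone RNA of pancreatic polypeptide cells, with 88737 to 158943 CPM of their markers beside 80703 to 85699 CPM of δ-cell markers in untreated islets, and its δ-cell markers summed to 28004 to 42124 CPM with cytokines. In α-cells, β-cell markers summed to 9058 to 28784 CPM untreated and 49528 to 51052 CPM with cytokines. The macrophage class had all 11 of its markers in every library, and of 8 T and natural killer cell markers 7 were at 0 in all 8 libraries and Klrd1 in 7 of 8. β-cell markers in macrophages moved with the condition, from 18569 to 43606 CPM untreated to 2289 to 6760 CPM with cytokines, and their part in the results was not tested. The mesenchymal class held Schwann cell markers at 3.36 to 234 CPM untreated and 150 to 210 CPM with cytokines. Except for mesenchymal cells, which formed 1 cluster, each class lay in different clusters with and without cytokines, although the chemokines were not used for clustering. Endothelial cells were in a cluster led by Esm1 and Fabp4 in untreated islets (97 cells) and with NMMA (100 cells), and with cytokines (37 cells) and cytokines and NMMA (48 cells) in another, led by Timp3, Ly6c1 and Ly6a, whose 10 leading genes included Cxcl9 and Cxcl10 and none of the endothelial markers used for naming, all 9 of which were detected in it. Macrophages with cytokines were divided, 24 cells in the cluster of the untreated ones and 45 in a cluster led by C1qb and H2-Ab1. The δ-cells of untreated islets (113 cells) and those with cytokines (17 cells) likewise lay mainly in different clusters, as did α- and β-cells. Removing cells with Schwann cell markers changed no call of a chemokine in that class.

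With cytokines 2 or more of the chemokines were called higher in each of the 6 classes, and none lower, with the δ-cell calls from 1 cytokine library. By edgeR's quasi-likelihood test with Benjamini-Hochberg adjustment over all genes of a class, 3 of 4 rose in β-cells (Cxcl9, Cxcl10 and Cxcl16), where 46.2% of all genes tested were called. In the α-cells 2 of 4 rose (Cxcl16 and Ccl5), beside 21.2% of all genes. Of 3 that could be tested in δ-cells 2 rose (Cxcl9 and Cxcl10), beside 7.86%. The δ-cell calls rest on 1 library of 11 cells, with 4 UMIs of Cxcl9. Both were lost with the library of 8 cells included (adjusted p 0.114 and 0.321, edgeR). Both levels in the library of 11 cells were also below a later estimate of RNA carried over from other cells. In macrophages 2 of 4 rose (Cxcl9 and Cxcl16, 4.62%), in endothelial cells 3 of 4 (Cxcl9, Cxcl10 and Cxcl16, 6.33%) and in mesenchymal cells 4 of 4 (1.80%). So many β-cell genes were called that 3 of 4 says little about these genes as a list there, while the shares in the other classes were lower. With NMMA added to the cytokines, 2 of 4 were higher than untreated in β-cells (22.7% of all genes), 0 of 4 in α-cells (7.96%), 2 of 3 in δ-cells (9.62%), 3 of 4 in macrophages (6.46%), 3 of 4 in endothelial cells (6.64%) and 4 of 4 in mesenchymal cells (1.97%). In the α-cells of this comparison 2 chemokines had an unadjusted p under 0.05, and DESeq2 called 1, Cxcl9. With NMMA alone edgeR called no chemokine and no other gene in any class without the replicate block (0.00% called in β-cells, and likewise 0.00% in each of the other 5 classes). At an unadjusted p under 0.05, 924 genes passed in β-cells and 77 to 369 in the other classes, DESeq2 called 15 in β-cells and 0 elsewhere, and edgeR with the block called 447 in β-cells. Of the chemokines, endothelial Cxcl16 had an unadjusted p under 0.05 with NMMA alone, and DESeq2 called none of them. The levels of all 4 by class and library are plotted on a common scale.

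**Figure D1:**
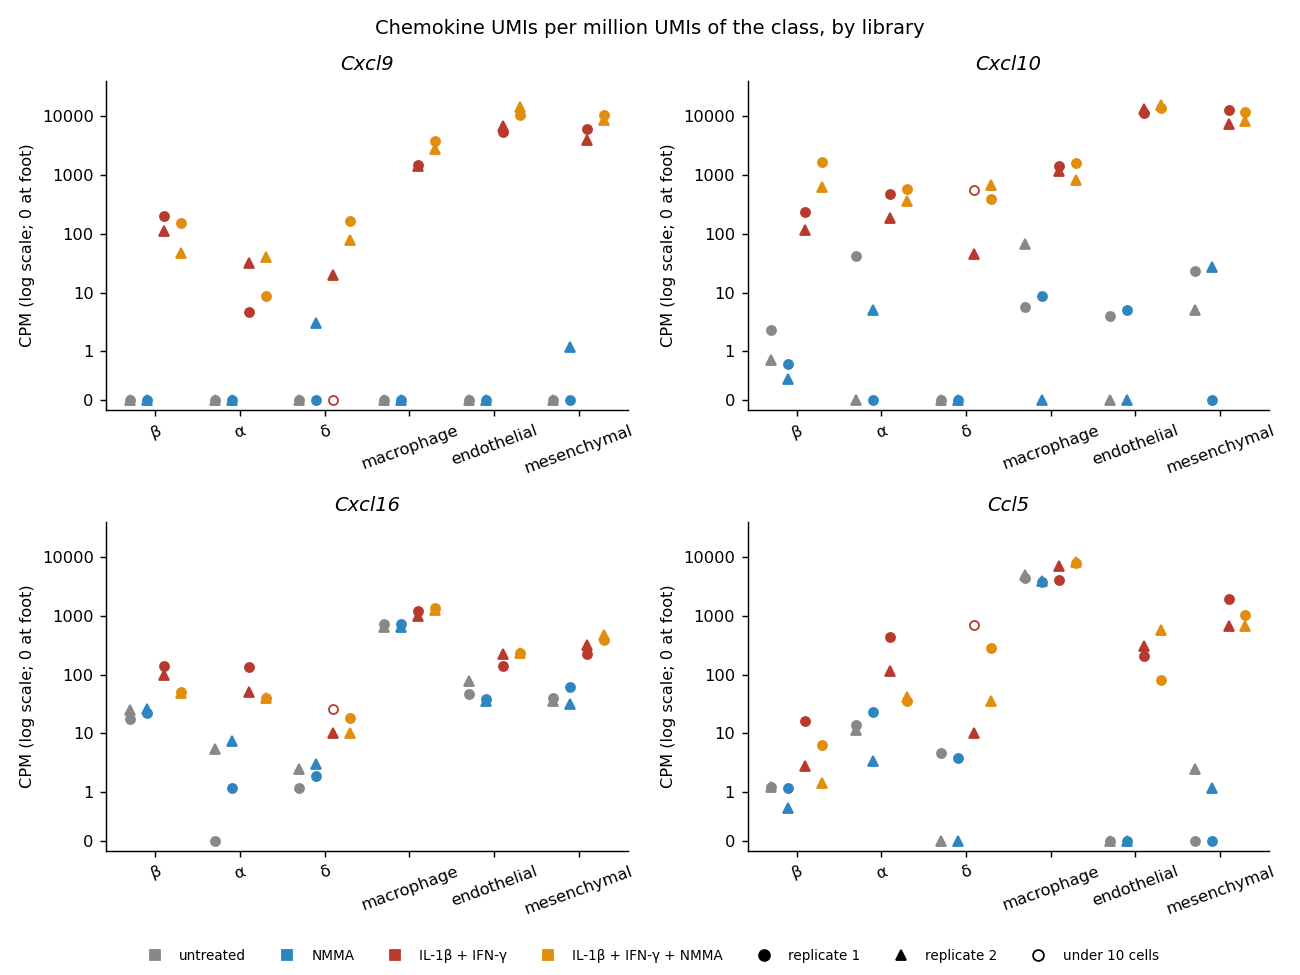
CPM of each chemokine (UMIs per 1000000 UMIs of the class, log axis with 0 at its foot) in the 6 cell classes, 1 point per library, with the condition in colour, replicate 1 as circles and replicate 2 as triangles. Cxcl9 and Cxcl10 with cytokines stood at 3899 CPM or more in endothelial and mesenchymal cells of both replicates, while Cxcl16 and Ccl5 were highest in macrophages in every condition, and the open point is the library with 8 δ-cells.

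Cxcl9 was absent from untreated islets: no cell of the 6 classes held a UMI of it. With NMMA alone 1 UMI was found in δ-cells and 1 in mesenchymal cells, both in replicate 2, and 0 elsewhere. In endothelial cells Cxcl9 reached 5386 and 6982 CPM with cytokines in replicates 1 and 2, and 10505 and 14449 CPM with cytokines and NMMA. In mesenchymal cells it was 6111 and 3899 CPM, and 10722 and 8610 CPM with NMMA. These classes, which line and support the islet capillaries, gave the highest levels in both replicates, and their ranges overlapped with cytokines. Macrophages had 1473 and 1436 CPM with cytokines and 3888 and 2790 CPM with NMMA. In β-cells the level was 204 and 111 CPM, and 152 and 46.6 CPM with NMMA. In α-cells it was 4.73 and 32.5 CPM, and 8.80 and 40.6 CPM with NMMA. The order with cytokines thus ran from endothelial and mesenchymal cells through macrophages and β-cells to α- and δ-cells, and only the neighbours at its ends had overlapping ranges.

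Since the untreated sums held no UMI, the rise of Cxcl9 is given as a lower bound, against 3 UMIs over both untreated libraries, which covers counting error only. With cytokines Cxcl9 was at least 2887-fold higher in β-cells, 2532-fold in endothelial cells, 1075-fold in mesenchymal cells, 522-fold in macrophages, 22.4-fold in α-cells and 5.29-fold in δ-cells. The bound depends on how many UMIs the class has and does not rank the classes. By edgeR's quasi-likelihood test the rise passed in β-cells (adjusted p 0.0256), macrophages (2.02e-08), endothelial cells (3.14e-10), mesenchymal cells (9.42e-05) and δ-cells (0.0346), and it did not in α-cells (0.271). The β-cell call was lost without either untreated or either cytokine library (adjusted p up to 0.153), and the δ-cell call in 3 of 6 cases (up to 0.133). With cytokines and NMMA, Cxcl9 passed in macrophages (5.85e-09), endothelial cells (1.30e-10), mesenchymal cells (5.59e-05) and δ-cells (6.42e-07). The δ-cell levels were 164 and 79.8 CPM, the second level with a later estimate of RNA carried over from other cells. That δ-cell call was lost when cells with non-endocrine markers were removed (adjusted p 0.239, edgeR). In β-cells Cxcl9 did not pass without the block (0.0510) and did with it (0.0118). With the replicate as a block, which the shared pools justify, the α-cell rise with cytokines passed as well (adjusted p 1.78e-09, edgeR). Replicate 1 with cytokines held only 4 α-cell UMIs of Cxcl9, and 45 of the 46 of replicate 2 lay in 1 cell. That p is therefore not relied on.

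Cxcl10 in β-cells was 2.36 and 0.705 CPM untreated, 238 and 116 CPM with cytokines, and 1666 and 627 CPM with cytokines and NMMA. The 3 conditions did not overlap, and both replicates moved in the same direction at each step. Over both replicates together the cytokine level was 105-fold the untreated one (95% counting interval 85.6 to 130) and the level with NMMA 682-fold (557 to 844). The fitted rise with cytokines was 6.96 on the log2 scale (SE 0.98, adjusted p 0.00457, edgeR) and 9.45 with NMMA (SE 1.07, adjusted p 0.00449). These calls held without each library in turn.

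In endothelial cells Cxcl10 was 4.01 and 0 CPM untreated and 11527 and 13119 CPM with cytokines. The fitted change was 12.77 (SE 0.76, adjusted p 7.89e-05, edgeR), and the pooled ratio, against only 2 untreated UMIs, was 7434 with a counting interval of 2057 to 61392. Mesenchymal cells had 23.5 and 5.03 CPM untreated and 12871 and 7364 CPM with cytokines, a change of 9.69 (SE 1.12, adjusted p 0.00258) that lost its call without replicate 1 of cytokines with NMMA (adjusted p 0.0504). Endothelial and mesenchymal cells thus had the highest Cxcl10 with cytokines too, and their ranges again overlapped. In macrophages Cxcl10 was 5.62 and 68.2 CPM untreated, where 41 of the 49 UMIs of replicate 2 lay in 1 cell, and 1406 and 1180 CPM with cytokines. Every macrophage library with cytokines was above every one without, and the change of 5.05 (SE 1.07) did not pass (adjusted p 0.110). It passed when either untreated library was left out and by DESeq2 (adjusted p 0.00282).

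In α-cells Cxcl10 was 42.0 and 0 CPM untreated, the first from 51 UMIs that all lay in 1 cell, and 469 and 186 CPM with cytokines. The change of 4.64 (SE 1.63) did not pass (adjusted p 0.134, edgeR). In δ-cells it was 0 untreated in both replicates and 45.0 CPM in the only cytokine library with 10 or more cells (adjusted p 0.0435), while the library with 8 cells had 565 CPM. With that library included the δ-cell call was lost (adjusted p 0.321). The δ-cell rise with cytokines and NMMA, to 392 and 675 CPM, passed (adjusted p 0.000532) and was at least 215-fold, a call that was lost with that library of 8 cells included (0.299), and when the chemokines were kept among the genes used for clustering (0.138).

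Cxcl16, unlike Cxcl9, was held by untreated cells, and in macrophages at a high level. Macrophages had 736 and 653 CPM untreated, more than any of the other 5 classes in any condition. Cytokines took them to 1211 and 1005 CPM, a change of 0.77 (SE 0.20, adjusted p 0.0438, edgeR), and cytokines with NMMA to 1343 and 1284 CPM (1.01, SE 0.20, adjusted p 0.00645). The first of these calls was lost when any of the 8 libraries was left out (adjusted p up to 0.290) and by DESeq2 (0.101), and the second in 2 of 8 cases (up to 0.0820).

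In β-cells Cxcl16 was 17.5 and 24.9 CPM untreated, 142 and 99.7 CPM with cytokines and 50.8 and 48.5 CPM with cytokines and NMMA. The rise with cytokines was 6.40-fold over both replicates (5.98 to 6.85), or 2.74 on the fitted log2 scale (SE 0.21, adjusted p 2.12e-05, edgeR). It held without each library in turn, as did the smaller rise with NMMA present (1.25, SE 0.20, adjusted p 0.00206). In α-cells Cxcl16 went from 0 and 5.5 CPM to 137 and 51.6 CPM (5.29, SE 1.09, adjusted p 0.0335). That call did not hold with the replicate as a block (5.17, adjusted p 0.0595), and 5 of the 8 libraries were each needed for it (adjusted p up to 0.102). Endothelial cells rose from 46.1 and 78.7 CPM to 140 and 226 CPM (1.74, SE 0.31, adjusted p 0.00127), which needed replicate 2 of the cytokine libraries (without it 1.28, adjusted p 0.0778). Mesenchymal cells rose from 40.3 and 35.2 CPM to 223 and 324 CPM (3.05, SE 0.42, adjusted p 0.00269), which needed untreated replicate 2 (without it 2.91, adjusted p 0.0604). With NMMA present the endothelial rise was 2.09 (SE 0.30, adjusted p 0.000162) and the mesenchymal 3.67 (SE 0.42, adjusted p 0.000640). In δ-cells the level lay between 1.17 and 25.7 CPM and was too low to be tested.

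Ccl5 was a macrophage RNA before treatment. Macrophages held 95.7% and 98.5% of all Ccl5 UMIs of the untreated libraries, at 4339 and 4909 CPM. With cytokines they had 4154 and 7142 CPM, 1 replicate below and 1 above the untreated range, and the change of 0.40 (SE 0.25) did not pass (adjusted p 0.50, edgeR). With cytokines and NMMA they had 8018 and 8210 CPM, above all other libraries (0.90, SE 0.25, adjusted p 0.0455), a call that needed each of the 4 libraries it compares (adjusted p up to 0.266) and was lost by DESeq2 (0.0707).

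In mesenchymal cells Ccl5 went from 0 and 2.51 CPM, a single UMI, to 1919 and 673 CPM with cytokines (9.66, SE 0.86, adjusted p 0.000305, edgeR) and 1040 and 661 CPM with NMMA (8.99, SE 0.85, adjusted p 0.000291). Both calls held without each library in turn. Few cells carried it: 2 of 12 mesenchymal cells in replicate 1 and 8 of 24 in replicate 2 with cytokines. In endothelial cells no untreated UMI was found, and 210 and 311 CPM were measured with cytokines, at least 109-fold more, from 3 of 15 and 5 of 23 cells (adjusted p 0.330, and 0.000546 by DESeq2). With NMMA endothelial Ccl5 was 79.7 and 578 CPM. Macrophage markers in these endothelial cells summed to 2.57 to 4.66 CPM with cytokines, with 10 of 11 at 0, and to 1613 and 15.8 CPM with NMMA, and in mesenchymal cells to 6.54 to 19.7 CPM with cytokines and to 10.6 and 388 CPM with NMMA. The library with the most macrophage marker RNA was not the one with more Ccl5 in either class, and removing cells with macrophage markers changed no call in these 2 classes. Ccl5 in α-cells rose from 14.0 and 11.6 CPM to 440 and 117 CPM (4.99, SE 1.11, adjusted p 0.0467). In replicate 1, 176 of the 372 α-cell UMIs lay in 1 cell, and in replicate 2, 105 of 165. The α-cell call was lost without 6 of the 8 libraries (adjusted p up to 0.210), and also when cells with macrophage markers were removed (4.19, adjusted p 0.0974). In δ-cells Ccl5 was 4.68 and 0 CPM untreated, 10.0 CPM in the cytokine library of 11 cells, 702 CPM in that of 8 cells, which was left out of the test, and 281 and 35.5 CPM with NMMA. Neither difference from untreated passed (adjusted p 0.921 and 0.255). In the fit blocked on the replicate the latter passed (5.92), but its adjusted p of 2.52e-39 is too small for 2 libraries that differ as much as these and is not relied on.

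In β-cells Ccl5 was 1.22 and 1.22 CPM untreated, 16.1 and 2.84 CPM with cytokines, and 6.32 and 1.46 CPM with NMMA. The rise with cytokines did not pass (3.19, SE 1.12, adjusted p 0.0728, edgeR) and passed with the replicate as a block (3.27, SE 0.46, adjusted p 0.000837), as did the rise with NMMA (1.83, adjusted p 0.0323, against 0.358 without the block). Both cytokine libraries were above both untreated ones. Macrophage markers in β-cells summed to 48.7 to 72.9 CPM untreated, 70.6 to 125 CPM with cytokines and 94.2 to 192 CPM with NMMA, and 0 to 4 of the 11 were at 0. They thus rose together with Ccl5 from untreated to cytokines, but were higher still with NMMA, where Ccl5 was lower. Without cells that held such a marker the β-cell rise passed (2.97, SE 0.88, adjusted p 0.0384). With cytokines such a marker was seen in 70.8% and 61.5% of the β-cells that had no Cxcl9, so this refit rests on the smaller part of the cells.

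With NMMA added to the cytokines, the measured chemokine levels differed in both directions. Outside δ-cells, only the lower β-cell Cxcl16 passed by edgeR without the block. In β-cells, where 19.5% of all genes differed between cytokines with NMMA and cytokines alone, 1 of 4 was called: Cxcl16, which was lower with NMMA (−1.49, SE 0.20, adjusted p 0.00315, edgeR) at 0.395 of the cytokine level. This call held without each library in turn. Cxcl10 in β-cells was 6.50-fold higher with NMMA over both replicates (6.36 to 6.66), with both replicates above both cytokine libraries. Its fitted change of 2.49 (SE 0.77) did not pass without the block (adjusted p 0.0921) and passed with it (2.41, SE 0.11, adjusted p 5.56e-11). Cxcl9 in β-cells was lower with NMMA in both replicates, though the ranges overlapped (−0.87, SE 0.86, adjusted p 0.575). Ccl5 was also lower in both (−1.46, SE 1.02, adjusted p 0.378), and with the block that difference passed (−1.43, adjusted p 0.0299). With the block, β-cell Cxcl10 was also lower with NMMA alone than untreated (−1.72, adjusted p 0.00571), and without it this did not pass (0.821). Both levels were near 0, at 0.605 and 0.339 CPM (17 UMIs) with NMMA alone and 2.36 and 0.705 CPM (94 UMIs) untreated.

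In macrophages, endothelial and mesenchymal cells Cxcl9 was the chemokine with the steadiest difference, about 2-fold higher with NMMA in each. The pooled ratios were 2.23 in macrophages (2.08 to 2.38), 2.07 in endothelial cells (1.99 to 2.15) and 2.01 in mesenchymal cells (1.91 to 2.12), and in each class both libraries with NMMA were above both without. The fitted changes were 1.19 (SE 0.24), 1.05 (SE 0.23) and 0.89 (SE 0.41), and none passed without the block (adjusted p 0.0884, 0.506 and 1). With the block the macrophage change (1.17, adjusted p 0.00480) and the endothelial change (1.05, adjusted p 0.000716) passed. Without it edgeR called 0 of 4 chemokines in each of these classes, where 0.116% of all genes were called in macrophages, 0.00% in endothelial cells and 0.00% in mesenchymal cells. At an unadjusted p under 0.05, 1 of 4 passed in macrophages and 1 of 4 in endothelial cells, Cxcl9 in both, and 0 of 4 in mesenchymal cells, and DESeq2 called 0 in each. Cxcl10 in these classes changed by −0.10, 0.30 and −0.06 with NMMA.

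In α-cells 0 of 4 were called with NMMA against cytokines alone, among 10.6% of all genes. Ccl5 had the largest difference (−3.28, SE 0.97, adjusted p 0.130), an unadjusted p under 0.05 and a call by DESeq2 (adjusted p 0.0186), while Cxcl10 differed by 0.09. In δ-cells 2 of 3 were higher with NMMA, among 3.48% of all genes: Cxcl10 (3.64, SE 0.61, adjusted p 0.0429) and Cxcl9 (2.68, SE 0.69, adjusted p 0.0415). These rest on 1 cytokine library, and with the library of 8 δ-cells included the Cxcl10 difference was 1.03 (adjusted p 0.873). The plot of changes with NMMA sets the classes side by side.

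**Figure D2:**
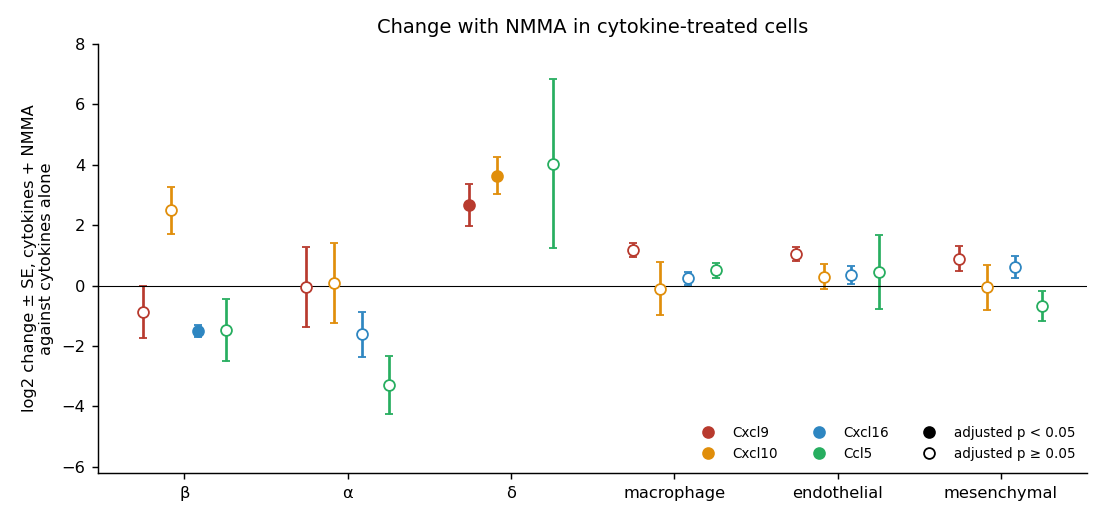
Log2 change of each chemokine with cytokines and NMMA against cytokines alone, with its SE, in the 6 classes, from edgeR without the replicate block, where filled points have an adjusted p below 0.05. Cxcl16 in β-cells (−1.49) and Cxcl9 and Cxcl10 in δ-cells (2.68 and 3.64, from 1 cytokine library) are filled, and β-cell Cxcl10 lies at 2.49 with an open point.

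The levels reached with cytokines were compared between classes in 1 fit over all classes with the library as a block. Macrophages were above β-cells for 4 of 4 chemokines, where 46.6% of all genes differed: Cxcl9 by 2.84 (SE 0.75, adjusted p 0.0110, edgeR), Cxcl10 by 2.58 (SE 0.79, 0.0123), Cxcl16 by 2.84 (SE 0.34, 2.87e-07) and Ccl5 by 9.25 (SE 1.17, 2.74e-06). The Cxcl9 and Cxcl10 calls were lost without either cytokine library (adjusted p up to 0.174). Endothelial cells were above β-cells for 3 of 4 (46.0% of all genes), by 4.39 for Cxcl9 (SE 0.80, 0.00126), 5.34 for Cxcl10 (SE 0.89, 6.93e-05) and 4.22 for Ccl5 (SE 1.01, 0.00213), but not for Cxcl16 (−0.21, adjusted p 0.706). Mesenchymal cells were above β-cells for the same 3 of 4 (35.7%), by 4.26 (SE 0.79, 0.00206), 5.14 (SE 0.88, 0.000143) and 6.41 (SE 1.04, 8.28e-05), with Cxcl16 at 0.58 (0.254). The Cxcl9 differences from β-cells were lost without cytokine replicate 2 in endothelial cells (0.0702) and without either cytokine library in mesenchymal cells (up to 0.0751), and the endothelial Ccl5 difference without replicate 2 (0.138).

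α-cells differed from β-cells in 2 of 4 (16.6% of all genes): Cxcl9 was lower by 3.10 (log2 difference −3.10, SE 0.90, adjusted p 0.0432, edgeR) and Ccl5 higher by 4.76 (SE 0.97, 0.00199). The Cxcl9 difference was lost without 4 of the 8 libraries (adjusted p up to 0.496). Cxcl10 in α-cells was 0.74 above β-cells and did not differ by the test (0.610). δ-cells had less Cxcl16 than β-cells (−4.36, SE 1.05, adjusted p 0.0105), 1 call of 4 among 7.40% of all genes. Against endothelial cells, macrophages had less Cxcl10 (−2.76, SE 0.80, 0.0132), more Cxcl16 (3.05, SE 0.39, 1.32e-06) and more Ccl5 (5.03, SE 0.99, 0.000687), 3 of 4 among 28.7%. Against mesenchymal cells the same 3 differed in the same directions (−2.56, 2.27 and 2.84, adjusted p 0.0248, 7.74e-05 and 0.0283), among 23.3%. Both Cxcl10 differences were lost without either cytokine library (adjusted p up to 0.226), and the Ccl5 difference from mesenchymal cells without 5 of the 8 libraries (up to 0.461). Endothelial and mesenchymal cells differed in 0 of 4 (12.5%), with Ccl5 the only 1 at an unadjusted p under 0.05.

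Whether the response itself, cytokines against untreated, differed between classes was tested for Cxcl10, Cxcl16 and Ccl5, since Cxcl9 had no untreated UMI to give a response. δ-cell Cxcl10 and endothelial Ccl5 had no untreated UMI either. They are among the 3 counted for their class, but the test cannot decide on these responses. Only macrophage Cxcl16 responded differently from β-cells, by −1.93 (SE 0.47, adjusted p 0.0161, edgeR), 1 of 3 among 4.76% of all genes. The difference was lost without either untreated library, NMMA replicate 1 or replicate 2 of cytokines with NMMA (adjusted p up to 0.152). The counts for the other classes were 0 of 3 in α-cells (0.684%), 0 of 3 in δ-cells (0.877%), 0 of 3 in endothelial cells (5.67%) and 0 of 3 in mesenchymal cells (3.88%). At an unadjusted p under 0.05, 1 of 3 passed in α-cells (Cxcl16), 1 in endothelial cells (Cxcl10), 1 in mesenchymal cells (Ccl5) and 0 in δ-cells.

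A high level per cell and a large share of the RNA of the islet are different quantities. For Cxcl9 they fell to different cells in replicate 1, whereas in replicate 2 endothelial cells had both. With cytokines, endothelial cells were 1.13% and 2.27% of the cells of their libraries and held 12.2% and 41.6% of the Cxcl9 UMIs. β-cells were 85.9% and 56.6% of the cells and held 63.2% and 28.2%. With NMMA the β-cell share of Cxcl9 was 32.1% and 4.27%, lower than without NMMA in both replicates, and that of endothelial cells 25.8% and 57.7%. The share of β-cells among all cells was also lower with NMMA, at 68.8% and 37.6%, so a lower share of the UMIs cannot be told apart from fewer captured β-cells. The replicates likewise differ in the cells they contained.

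For Cxcl10 the β-cell share moved the other way, from 53.7% and 19.1% with cytokines to 80.7% and 35.9% with NMMA, while the endothelial share went from 19.0% and 50.6% to 7.70% and 39.6%. Cxcl16 was carried mostly by β-cells with cytokines, at 82.9% and 70.4%, and less so with NMMA, at 53.2% and 33.1%, when macrophages held 28.1% and 39.3%. Macrophages held 60.1% and 74.3% of Ccl5 with cytokines and 78.8% and 75.7% with NMMA. These are shares of captured cells, and capture and survival of each cell type enter them.

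**Figure D3:**
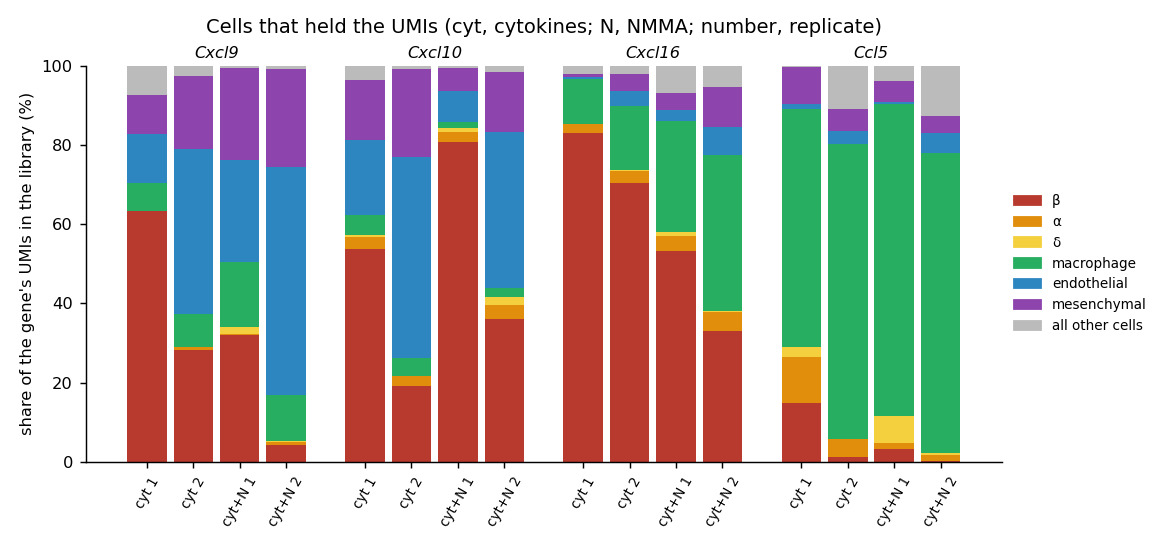
Share of the UMIs of each chemokine in a library (%) that lay in each cell class, for the 2 cytokine libraries and the 2 libraries of cytokines with NMMA. The β-cell part of Cxcl9 falls from 63.2% and 28.2% to 32.1% and 4.27% with NMMA, while that of Cxcl10 grows from 53.7% and 19.1% to 80.7% and 35.9%.

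To count cells with a UMI, every cell was thinned to 1 depth per class: 10000 UMIs for β-cells, 8500 for α-cells, 4500 for endothelial cells, 4000 for δ-cells, 1500 for macrophages and 1000 for mesenchymal cells, with shallower cells left out. Intervals are exact 95% Clopper-Pearson intervals and cover counting error only. Among β-cells, Cxcl9 was seen in 0 of 1582 and 0 of 512 untreated cells, which allows a share of up to 0.190% and 0.586%. With cytokines it was seen in 17% (14.8 to 19.4) and 11.8% (9.01 to 15), and with NMMA in 13.1% (10.6 to 16) and 9.47% (6.65 to 13.0). The unthinned shares with cytokines were 21.0% and 16.6%. In α-cells of the same libraries, Cxcl9 was seen in 1 of 42 and 1 of 59 cells at 8500 UMIs. At a common depth of 1000 UMIs the α-cell shares were 2.13% (0.0539 to 11.3) and 1.43% (0.0362 to 7.70), intervals that reach over the β-cell shares of 7.94% and 4.59%, so no difference between the classes was detectable at that depth.

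Cxcl10 was seen in 0.569% and 0.391% of untreated β-cells, 38.4% (35.5 to 41.3) and 35.1% (30.8 to 39.6) with cytokines and 63.6% (59.7 to 67.4) and 52.9% (47.6 to 58.2) with NMMA. So the higher β-cell level with NMMA came with more β-cells that had the RNA. In α-cells the share was 52.4% and 28.8% with cytokines and 42.7% and 38.0% with NMMA, with overlapping intervals. Cxcl16 was seen in 14.4% and 20.9% of untreated β-cells, 57.6% and 52.7% with cytokines and 30.9% and 32.9% with NMMA. Ccl5 was seen in no more than 4.16% of β-cells in any condition. In α-cells Cxcl16 was seen in 0% and 3.45% of untreated cells and in 31.0% and 23.7% with cytokines.

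Among endothelial cells Cxcl9 was seen in 93.3% and 87.0% with cytokines and 92.9% and 96.8% with NMMA, and Cxcl10 in 80% and 95.7%, then 92.9% and 100%. Each gene was thus seen in most endothelial cells. In mesenchymal cells Cxcl9 was seen in 54.5% and 54.2% with cytokines and Cxcl10 in 63.6% and 83.3%. In macrophages Cxcl9 was seen in 44.4% and 48.3% with cytokines and in 72.0% and 68.4% with NMMA, intervals that overlap within each replicate. Ccl5 was seen in 90.3% and 91.5% of untreated macrophages and 92.6% and 93.1% with cytokines, so that the RNA was present in most macrophages of each condition. At 1000 UMIs, Cxcl9 with cytokines was seen in 73.3% and 73.9% of endothelial cells, 54.5% and 62.5% of mesenchymal cells, 35.5% and 26.5% of macrophages and 7.94% and 4.59% of β-cells, the same order as the CPM.

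Within β-cells Cxcl9 was concentrated in few cells. The 10% of β-cells with the most Cxcl9 held 95% and 97.8% of its β-cell UMIs with cytokines and 97.0% and 95.9% with NMMA. For Cxcl10 the 10% with the most held 74.3% and 71.2% with cytokines and 61.8% and 66.7% with NMMA, and for Cxcl16 37.0% and 38.8%, then 43.5% and 43.7%. Endothelial cells spread Cxcl9 more evenly, with 58.0% and 45.6% of it in their top 10% with cytokines. The most Cxcl9 UMIs in 1 β-cell were 386 and 262 with cytokines, so single β-cells held many while most held none.

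**Figure D4:**
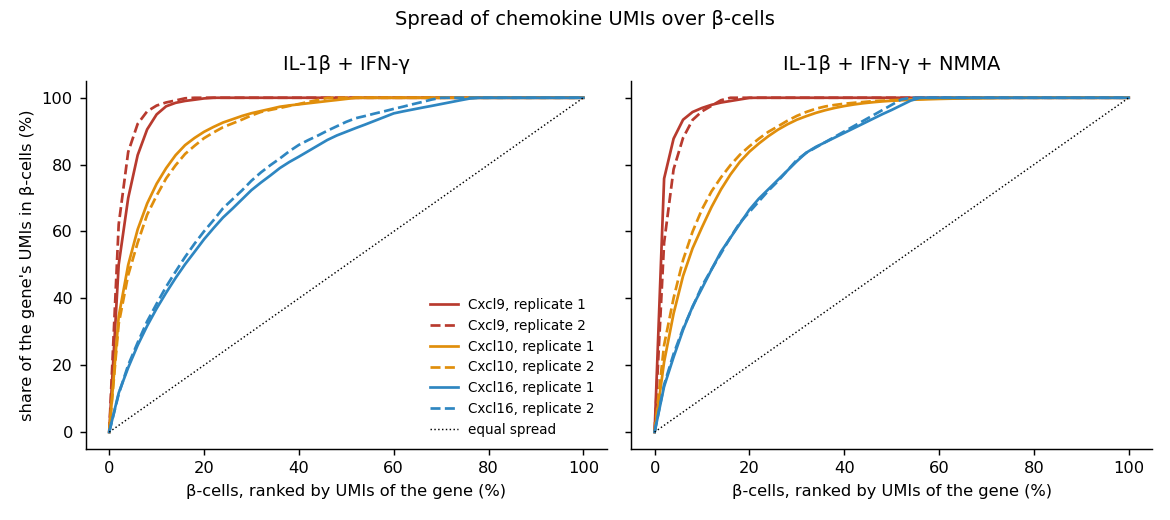
Share of the UMIs of Cxcl9, Cxcl10 and Cxcl16 in β-cells (%) against the share of β-cells, ranked from the cell with the most UMIs of the gene, with cytokines (left) and with cytokines and NMMA (right), replicate 1 as solid and replicate 2 as dashed lines. Cxcl9 rises to 95% or more of its UMIs within 10% of the β-cells in all 4 libraries, and the dotted line marks equal spread.

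Cells with 10 or more UMIs of a chemokine, a limit set after the values were seen, were described further. With cytokines 111 of 1136 β-cells (9.77%) and 32 of 573 (5.58%) had 10 or more Cxcl9 UMIs, and these held 94.6% and 91.3% of the Cxcl9 UMIs of β-cells. Insulin transcripts made up 34.9% of the UMIs of those cells in replicate 1, beside 32.5% in β-cells without Cxcl9, and an endothelial marker was seen in 4.50% beside 4.91%. In replicate 2 the endothelial share was 9.38% beside 6.69%, and insulin made up 38.9% beside 34.4%. A macrophage marker was seen more often in the cells with 10 or more Cxcl9 UMIs in all 4 libraries, in 79.3% and 71.9% beside 70.8% and 61.5% with cytokines and in 88.2% and 66.7% beside 76.7% and 60.1% with NMMA. These cells also had more UMIs, with medians of 27206 and 35669 beside 24418 and 26545 with cytokines, and the part of either was not tested. Doublets were called in 6.31% and 3.13% of them, beside 1.56% and 0.628% of β-cells without Cxcl9, and removing called doublets lost no β-cell call.

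β-cells with 10 or more Cxcl10 UMIs were 167 of 1136 (14.7%) and 54 of 573 (9.42%) with cytokines and 272 of 645 (42.2%) and 138 of 448 (30.8%) with NMMA. Nos2 was seen in 77.8% and 87.0% of these cells with cytokines, beside 51.5% and 37.3% of β-cells with no Cxcl10 UMI. With NMMA the shares were 93.4% and 87.0%, beside 58.0% and 44.7%. Nos2 was thus seen more often beside high Cxcl10 in all 4 libraries, in cells that also had more UMIs (medians of 24960 and 37137 beside 23849 and 22859 with cytokines). An endothelial marker was likewise seen more often in them, in 7.78% and 16.7% beside 4.78% and 4.55% with cytokines. With NMMA it was 16.9% and 20.3% beside 12.1% and 10%. A macrophage marker was seen in 73.1% and 74.1% beside 72.4% and 52.9% with cytokines, and in 84.6% and 75.4% beside 71.3% and 52.4% with NMMA. The part of depth and of such marker RNA was not tested.

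RNA that leaks from other cells can reach any droplet, so the endocrine levels were set against an estimate of it. For macrophages, endothelial and mesenchymal cells in turn, the level of their markers in an endocrine class, relative to their own, was multiplied by their level of the chemokine, and the 3 products were summed. The estimate takes all such marker RNA as carried over. In β-cells Cxcl9 was measured at 204 and 111 CPM with cytokines beside an estimate of 8.58 and 8.55 CPM, and at 152 and 46.6 CPM beside 37.5 and 24.8 CPM with NMMA. Cxcl10 in β-cells was 238 and 116 CPM beside 10.1 and 11.9 CPM, and 1666 and 627 CPM beside 24.1 and 20.2 CPM with NMMA. Both genes were thus above the estimate in β-cells of all 4 libraries, and Cxcl16 with cytokines was too (142 and 99.7 CPM beside 5.77 and 3.0 CPM).

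β-cell Ccl5 was the opposite case, at 16.1 and 2.84 CPM beside an estimate of 19.8 and 20.03 CPM with cytokines, and 6.32 and 1.46 CPM beside 56.7 and 25.7 CPM with NMMA. It did not exceed the estimate in any of the 4 libraries. In untreated β-cells Ccl5 was likewise 1.22 and 1.22 CPM beside 11.6 and 10.5 CPM, so the estimate was larger than all the Ccl5 measured even there. The part of macrophage RNA in the β-cell rise was not tested. In α-cells Cxcl9 was 4.73 and 32.5 CPM beside 14.4 and 13.5 CPM with cytokines and at or below the estimate with NMMA (8.80 and 40.6 CPM beside 40.4 and 46.6 CPM). α-cell Cxcl10 (469 and 186 CPM beside 26.8 and 22.9 CPM) and Ccl5 (440 and 117 CPM beside 11.5 and 13.7 CPM) were above it. In the δ-cells of cytokine replicate 2, both Cxcl9 (20.02 CPM beside 47.3) and Cxcl10 (45.0 CPM beside 82.3) were below the estimate. With NMMA δ-cell Cxcl10 was above it, at 392 and 675 CPM beside 59.5 and 79.1 CPM. Cxcl9 in these δ-cells was 164 CPM beside 55.2 in replicate 1 and level with the estimate in replicate 2 (79.8 CPM beside 79.7). RNA of β-cells was not part of the estimate. With cytokines and NMMA, β-cell markers summed to 41899 to 53848 CPM in δ-cells and 26906.5 to 55941 CPM in α-cells. In β-cells they summed to 387103 to 387508 CPM. The part of β-cell RNA in α- and δ-cell Cxcl10 was not tested.

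**Figure D5:**
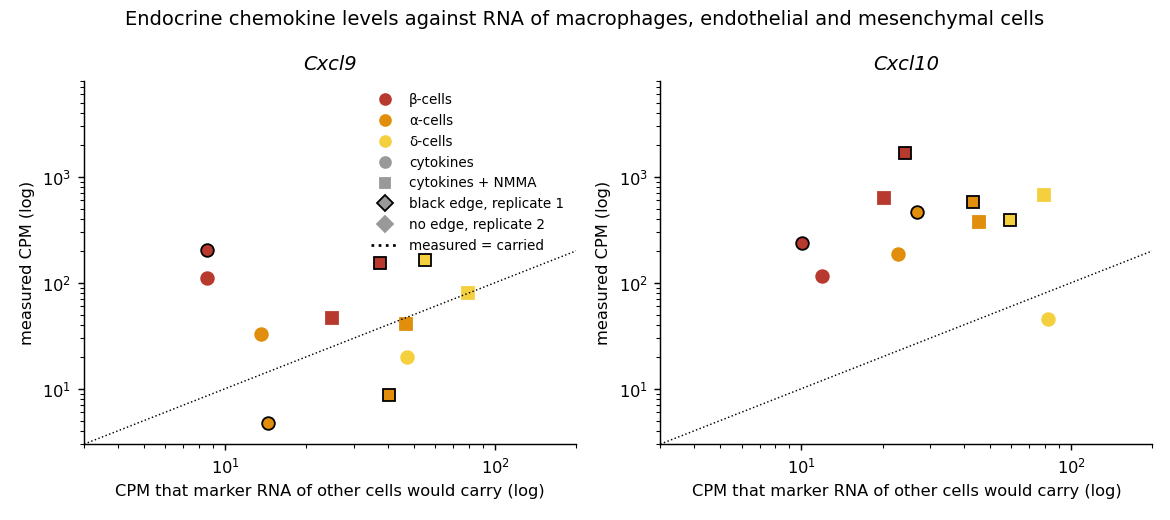
Measured CPM of Cxcl9 (left) and Cxcl10 (right) in β-, α- and δ-cells of the cytokine libraries (circles) and the libraries of cytokines with NMMA (squares), against the CPM that the marker RNA of macrophages, endothelial and mesenchymal cells would carry, both on log axes, with the dotted line where they are equal. The β-cell points lie above the line in both panels, while α-cell Cxcl9 lies on both sides of it, from 4.73 CPM beside 14.4 to 32.5 CPM beside 13.5. The cytokine library of 8 δ-cells is not drawn, with Cxcl9 at 0 CPM beside 27.7 and Cxcl10 at 565 CPM beside 48.7.

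Genes of the pathways around the chemokines were counted in lists. Of 11 genes of IFN-γ signalling, cytokines raised 10 in both β- and α-cells, 8 in endothelial cells, 6 in both δ-cells and macrophages and 5 in mesenchymal cells, and none fell. Of all genes, 46.2% were called in β-cells, 21.2% in α-cells, 6.33% in endothelial cells, 7.86% in δ-cells, 4.62% in macrophages and 1.80% in mesenchymal cells. The list's median was lowest in macrophages (1.60) and highest in β-cells (2.95), beside −0.02 to 0.02 over all genes tested in the 6 classes. In β-cells Gbp2, a guanylate-binding protein, rose by 9.07 (SE 0.34, adjusted p 7.50e-07, edgeR), Irf8, an interferon regulatory factor, by 6.84 (SE 0.51) and Socs1, a feedback inhibitor of JAK kinases, by 5.34 (SE 0.22). Of the 9 genes of the NF-κB list, 7 rose and 1 fell in β-cells and 6 rose and 1 fell of 8 in α-cells. In β-cells the inhibitors Tnfaip3 (3.93, SE 0.22) and Nfkbia (2.80, SE 0.26) and the subunit gene Nfkb2 (2.88, SE 0.25) had the largest changes. The median of the NF-κB genes was 1.51 in β-cells, 2.24 in α-cells and 0.45 in macrophages.

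Beside the 19.5% of all β-cell genes called with NMMA against cytokines alone, 3 of the 11 IFN-γ genes and 2 of the 9 NF-κB genes were called, shares near that of all genes. Of the IFN-γ genes, Socs1 (1.58, SE 0.17, adjusted p 0.00179, edgeR) and the factor Irf1 (0.61, SE 0.12, 0.0108) were higher and the kinase gene Jak1 was lower (−0.44, SE 0.13, 0.0478). Of the NF-κB genes, Nfkb2 (−1.03, SE 0.23, 0.0174) and Rela (−0.51, SE 0.15, 0.0460) were lower. Among 13 other chemokines, 7 could be tested in β-cells and 5 rose with cytokines, beside the 46.2% of all genes called there, led by the monocyte attractant Ccl2 (10.89, SE 0.72) and the neutrophil attractants Cxcl1 (9.27, SE 0.66) and Cxcl2 (8.22, SE 0.64). These 3 were lower with NMMA, Cxcl2 by −3.53 (SE 0.43, 0.00315), Ccl2 by −2.94 (SE 0.47, 0.0110) and Cxcl1 by −2.10 (SE 0.39, 0.0192), as Cxcl16 was, whereas Cxcl10 was not. In the other classes cytokines raised 2 of 4 other chemokines in α-cells, 1 of 7 in macrophages (Ccl2), 2 of 7 in endothelial cells (Cxcl1 at 9.13 and Cx3cl1 at 2.87) and 2 of 6 in mesenchymal cells (Cxcl2 at 9.89 and Cxcl5 at 8.60). Of all genes, 21.2%, 4.62%, 6.33% and 1.80% were called in these classes, in the same order.

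Of the enzymes that cut these chemokines, the membrane protease gene Adam17 rose in β-cells with cytokines (1.78, SE 0.16, adjusted p 5.28e-05, edgeR) and Dpp4, a peptidase that trims chemokines, fell (−1.52, SE 0.15, 9.34e-05). Adam10, which sheds CXCL16, was higher with NMMA than with cytokines alone (0.67, SE 0.16, 0.0205). Cxcr3 and Cxcr6, the receptors of CXCL9, CXCL10 and CXCL16, had 3 UMIs each, all in macrophages. Macrophages held 561 UMIs of Ccr1, a receptor gene for CCL5, which was higher there with cytokines and NMMA than untreated (1.32, SE 0.31, adjusted p 0.0183).

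Over 47 sums of a class in a library, the pattern of each chemokine was compared with 8776 genes by Pearson's r on log2(CPM + 1), as a description in which sums of 1 library share depth and handling. The closest to Cxcl9 were Olfr56 (0.948), Sod2 (0.941) and Batf2 (0.940), and to Cxcl10 Igtp (0.940), Gm4951 (0.939) and Batf2 (0.931), with r = 0.922 between Cxcl9 and Cxcl10. The closest to Cxcl16 were AU020206 (0.881), Hmox1 (0.868) and Xdh (0.858), and to Ccl5 H2-Ab1 (0.830), Lap3 (0.827) and H2-Eb1 (0.821), with r = 0.744 between Cxcl16 and Ccl5. Cxcl9 and Cxcl10 therefore shared 1 of their nearest genes, and Cxcl16 and Ccl5 none.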

How the data were processed

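Single-cell RNA of whole mouse islets was measured in 8 10x libraries, 4 conditions in each of 2 replicates. For each library the authors deposited raw counts of UMIs (unique molecules) as a sparse matrix, made with Cell Ranger 3.0.0 for replicate 1 and 6.0.0 for replicate 2 per the file headers and on mm10 per the submitters' processing notes. Their lists of 31053 and 32285 genes share 30406, which were used. Separate versions mean that replicate and processing cannot be told apart, so values are given per replicate.

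Barcodes with at least 200 genes, at most 5500 (replicate 1) or 6500 genes (replicate 2) and at most 10% mitochondrial UMIs were kept. Counts were scaled to 10000 per cell and clustered (scanpy 1.11.5, leidenalg 0.10.2, 2000 variable genes without the chemokines, 30 components, 20 neighbours, resolution 1). Clusters were named from marker lists, and 2044 cells stayed unnamed. Doublets (186 cells, assumed rate 0.8% per 1000 barcodes) were removed only as an alternative.

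UMIs of a class were summed per library and tested with edgeR 4.0.16 in R 4.3.3 (filterByExpr, TMM, robust quasi-likelihood F test, Benjamini-Hochberg over all genes, threshold 0.05, all conditions in 1 fit, no replicate block), and with DESeq2 1.42.0 as an alternative. The SE is the size of the log2 change over the square root of F. Same-numbered samples come from the same pool of mice, and their deviations from the group means correlated with r of 0.606 to 0.701 in β-cells, 0.247 to 0.443 in α-cells, 0.242 to 0.305 in δ-cells, 0.336 to 0.460 in macrophages, 0.227 to 0.389 in endothelial and 0.121 to 0.420 in mesenchymal cells, so a fit with the replicate as a block is given where it changes a call. With 2 pools, p-values measure the spread between these samples. Under scaling to total UMIs, the median over all genes with cytokines moved by −0.22 in β-cells, −0.51 in α-cells, −0.12 in macrophages, −0.22 in endothelial and −0.21 in mesenchymal cells, and no chemokine reversed.

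The chemokines and gene lists were chosen with earlier results of these data known. All members were named, and of each list up to 3 called genes with the largest log2 change per comparison. Other alternatives were no filter on low counts, at least 5 cells per sum, removal of cells with macrophage markers, the chemokines kept among the variable genes, and each library left out. Removal of endocrine cells with any non-endocrine marker and of mesenchymal cells with Schwann markers was added after the data were seen. The fits were tested on simulated data. Some genes of the lists are not reported here.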

Additional observations from a re-analysis of the deposited data

Results flagged for a closer look

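The response of Cxcl16 to cytokines was smaller in macrophages than in β-cells, with an interaction of −1.93 on the log2 scale (SE 0.47, adjusted p 0.0161, edgeR's quasi-likelihood test), which was set apart as a difference of 1 contrast between 2 cell classes. Macrophages held 736 and 653 CPM before treatment and β-cells 17.5 and 24.9 CPM. The interaction ranged from −1.68 to −2.05 without either untreated library, and its adjusted p reached 0.152.

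Cells outside the 6 classes also held chemokine UMIs with cytokines, above the level in untreated cells of the same name by their counting intervals. These sums pool both replicates and have no test. In 19 acinar cells with cytokines Cxcl9 was 598 CPM, Cxcl10 238 CPM and Cxcl16 180 CPM, while 10 untreated acinar cells held 0 CPM of Cxcl9 and Cxcl10 and 19.5 CPM of Cxcl16. In 10 acinar cells with cytokines and NMMA Cxcl9 and Cxcl10 were at 0, with an upper limit of 22.2 CPM, and Cxcl16 was 36.2 CPM. Only 7 ductal cells were found with cytokines, against 589 untreated. They held Cxcl9 at 5170 CPM, Cxcl10 at 3010 CPM, Cxcl16 at 644 CPM and Ccl5 at 81.4 CPM, and the untreated ductal cells 0, 15.5, 168 and 2.82 CPM. Of the untreated ductal cells 573 lay in a cluster with a median of 773.5 UMIs, while 6 of the 7 with cytokines lay in another, in which 16 untreated cells had 306 CPM of Cxcl16. In 13 ductal cells with cytokines and NMMA Cxcl9 was at 0, with an upper limit of 28.5 CPM, and Cxcl10 was 766 CPM. The 318 unnamed cells with cytokines held Cxcl9 at 138 CPM, Cxcl10 at 191 CPM, Cxcl16 at 79.2 CPM and Ccl5 at 824 CPM, and 500 untreated ones 0, 13.8, 10.9 and 2.88 CPM. Of the 406 Ccl5 UMIs of the unnamed cells with cytokines, 393 came from 5 cells of a cluster led by Igkc, Ighm and Jchain (7045 CPM), and 236 cells of another cluster had 36.1 CPM. What the unnamed cells are was not tested.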

How the results depend on the processing

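No called change of a chemokine reversed under any alternative, though Ccl5 in δ- against β-cells, not called at −0.19, was 4.09 (adjusted p 0.0237) with at least 5 cells. Responses against β-cells that were not called changed sign when 1 library was left out, as Cxcl10 in α-cells (−2.79 to 5.19) and macrophages (−3.76 to 1.84). Of the called changes, 219 of the refits other than those leaving out a library kept their call and 26 lost it, and 214 and 40 when a library was left out. Numbers below are chemokines called, first as reported and then under the alternative. DESeq2 gave 2 for 1 in β-cells with NMMA against cytokines, 1 for 0 in both α-cell comparisons with NMMA, and 1 for 2 in δ-cells with cytokines and with NMMA against cytokines. A minimum of 5 cells gave in δ-cells 0 for 2 with cytokines, 1 for 2 in both comparisons with NMMA, and 2 for 1 in the level against β-cells. Without cells with macrophage markers, the counts were 3 for 1 in β-cells with NMMA against cytokines, 1 for 2 in α-cells with cytokines and 0 for 2 in δ-cells with cytokines and NMMA. Without cells with non-endocrine markers, a step chosen after seeing the data, they were 2 for 1, 1 for 2 and 0 for 2 in these comparisons and 1 for 0 in α-cells with cytokines and NMMA. Without called doublets, and with the chemokines kept among the variable genes, both δ-cell counts with the cytokine library were 1 for 2, and with the chemokines kept δ-cell Cxcl10 with cytokines and NMMA also lost its call (adjusted p 0.138). Total UMIs in place of TMM gave 1 for 2 in macrophages with cytokines and in α- against β-cells. Without a filter on low counts, they were 4 for 2 in β-cells with cytokines and NMMA, 4 for 1 with NMMA against cytokines, 1 for 0 with NMMA alone, 0 for 2 in α-cells with cytokines, 1 for 0 in macrophages and in endothelial cells with NMMA against cytokines, 3 for 1 in δ- against β-cells, 1 for 0 in endothelial against mesenchymal cells, and for the responses 3 for 0 in α-cells, 3 for 1 in macrophages and 2 for 0 in endothelial and in mesenchymal cells. With the replicate block they were 4 for 2, 3 for 1 and 1 for 0 in these 3 β-cell comparisons, and 1 for 0 in α-cells with cytokines and NMMA and in macrophages and endothelial cells with NMMA against cytokines. The block changed no other count beyond 1.5 times.

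Leaving out 1 library gave 0 to 2 in α-cells with cytokines, 0 to 1 in both α-cell comparisons with NMMA, 1 to 2 in δ-cells with cytokines and 1 to 3 with NMMA against cytokines, and 1 to 2 in macrophages with cytokines and 1 to 3 with cytokines and NMMA. Between classes it gave 1 to 2 in α-, 2 to 4 in macrophages and 1 to 3 in endothelial cells against β-cells, 1 to 3 in macrophages against mesenchymal cells, and 0 to 1 for the responses of α-cells, macrophages and endothelial cells. Counts over all genes moved by more than 1.5 times in 17 of 24 comparisons with the block (in β-cells with NMMA against cytokines 5212 for 2491 genes), 11 of 24 under DESeq2 and 14 of 24 without the filter, and the β-cell calls with cytokines split into 1979 higher and 3933 lower under total UMIs, against 3037 and 2861. Few cells (8 to 83 δ-cells, 12 to 50 mesenchymal cells a library) limit these classes.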

Other observations

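Chemokines met in the same β-cells to different degrees. With cytokines, Cxcl10 was seen in 54.4% and 62.1% of β-cells that had Cxcl9, beside 51.5% and 43.1% of those without, and with cytokines and NMMA in 83.1% and 79.1%, beside 73.8% and 59.1%. Ccl5 was seen in 6.28% and 6.32% of β-cells with Cxcl9 with cytokines, beside 6.35% and 4.18% of those without. In replicate 2 the cells with Cxcl9 had a median of 33214 UMIs beside 26545, and in replicate 1 a median of 26064 beside 24418, so depth moved with these shares and its part was not tested.

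In α-cells Cxcl9 came from few cells. With cytokines and NMMA 74 of its 79 UMIs in replicate 2 lay in 1 α-cell, and 6 of 89 α-cells had any. The most Cxcl10 UMIs in 1 α-cell were 256 in replicate 1 with cytokines and NMMA, where 54 of 98 α-cells had at least 1.

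The scavenger receptor genes Ackr2 and Ackr3, whose proteins take up chemokines, held 250 and 185 UMIs in endothelial cells, and Ackr3 held 56 in mesenchymal cells.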
